A study of Mus musculus with 16 samples.

Results

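The genes described here encode the subunits of the mitochondrial oxidative phosphorylation complexes. They were taken from the probe sets with exactly 1 gene symbol in the platform annotation, where that symbol began with Nduf, Sdha, Sdhb, Sdhc, Sdhd, Uqcr, Cyc1, Cox4 to Cox8 or Atp5. The rule gave 102 probe sets for 74 genes, out of 8251 genes with a single-symbol probe set on the array. Of the 74 genes, 29 encode subunits of complex I, 4 of complex II, 8 of complex III, 15 of complex IV and 14 of complex V. The other 4, Ndufaf1, Ndufaf4, Sdhaf1 and Sdhaf2, share the name stems but encode assembly factors. Where a gene had several probe sets, the one brightest on average across the 16 arrays stood for it, and for these 21 genes the others served as a check. A further 10 probe sets with several symbols, at least 1 of them fitting the rule, were left out.

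Complexes I to IV form the respiratory chain of the inner mitochondrial membrane. Complexes I and II pass electrons from NADH and succinate to ubiquinone, complex III passes them to cytochrome c and complex IV to oxygen, while complex V uses the resulting proton gradient to make ATP. Complex II is also an enzyme of the citric acid cycle and is encoded entirely in the nucleus, whereas the other complexes also contain subunits encoded in mitochondrial DNA. Several nuclear subunits of complex IV exist as pairs of genes, one transcribed in most tissues and the other mainly in heart and skeletal muscle or in testis. Retinal photoreceptors pack mitochondria into their inner segments and rank among the heaviest users of oxygen in the body.

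The samples were total RNA from adult mouse retina and from cerebral cortex of newborn mice (postnatal day 1), hybridised to 1-colour oligonucleotide arrays. The first site hybridised 5 arrays per tissue and site 2 hybridised 3 per tissue. Each array received an aliquot of a single pool per tissue, made from 350 mice for retina and 19 mice for cortex per the first-site descriptions. The stated purpose was to measure variation between replicates and between sites. Retina donors were C57/B6 mice. For the cortex donors the labels disagree, with C57/B6 given per sample and Swiss-Webster in the design text. No animal carried a labelled transgene or treatment. Organ, age and possibly strain therefore differ together between the tissues and cannot be told apart. Since each group repeats 1 pool, the p-values measure only the spread between arrays. In whole tissue, a lower share of a cell type and less RNA per cell cannot be told apart either.

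All 7 measured rod photoreceptor markers were higher in retina and all 6 measured newborn cortex markers were lower, at both sites, as the labels say. Array medians in the deposited intensities ran from 45.7 to 216. Values below are intensities divided by the median of their array and multiplied by 100. The highest of 13 control probe sets with no added target lay between 12.6 and 37.0 on that scale, and 67 of the 74 genes lay above it on all 16 arrays. Cortex replicate 2 of site 2 was the dimmest array and stood apart, with a ratio of 3' to 5' Gapdh probe sets of 1.66, against 0.765 to 0.952 on the others. The corresponding actin ratio was 1.50 to 1.79 on the retina arrays, 1.85 on that cortex array and 1.04 to 1.26 on the other cortex arrays. This ratio moved with tissue, and its part in the results below was not tested.

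At the first site, more oxidative phosphorylation genes were higher in retina than lower. Of the 74 genes, 30 were higher, 9 were lower and 35 did not pass the threshold (limma, a linear model that pools the spread over probe sets, on log2 intensities centred on each array's median; Benjamini-Hochberg adjusted p under 0.05). Over all 12422 probe sets, 47.1% passed, 21.9% higher and 25.2% lower, against 40.5% of the 74 genes higher. Most of the genes are bright, and among probe sets above the median signal 32.9% were higher. The differences were small: the median log2 difference (retina minus cortex) was 0.13, against -0.05 over all probe sets and -0.03 over those above the median signal, and 4 genes reached 2-fold. At site 2, 24 genes were higher and 1 was lower, against 32.5% of all probe sets called, 16.7% higher and 15.9% lower. That is 32.4% of the genes higher, and among probe sets above the median signal 26.3% were higher. The median there was 0.28, against -0.02 over all probe sets and 0.05 over those above the median signal. When cortex replicate 2 of site 2 was left out, the site 2 medians were 0.28 for the genes and 0.15 over all probe sets. Site 2 values given below without that array stand beside this raised median. All 24 genes called higher at site 2 had also been called higher at the first site, and 1 gene, Cox6a2, was lower at both. No gene was called in opposite directions. Of the 28 check probe sets, 2 were called higher at the first site (of Cox6b2 and Atp5d) and 2 lower (of Ndufv2 and Atp5g1), and 2 were called higher at site 2 (of Cox6b2 and Ndufb2).

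**Figure D1:**
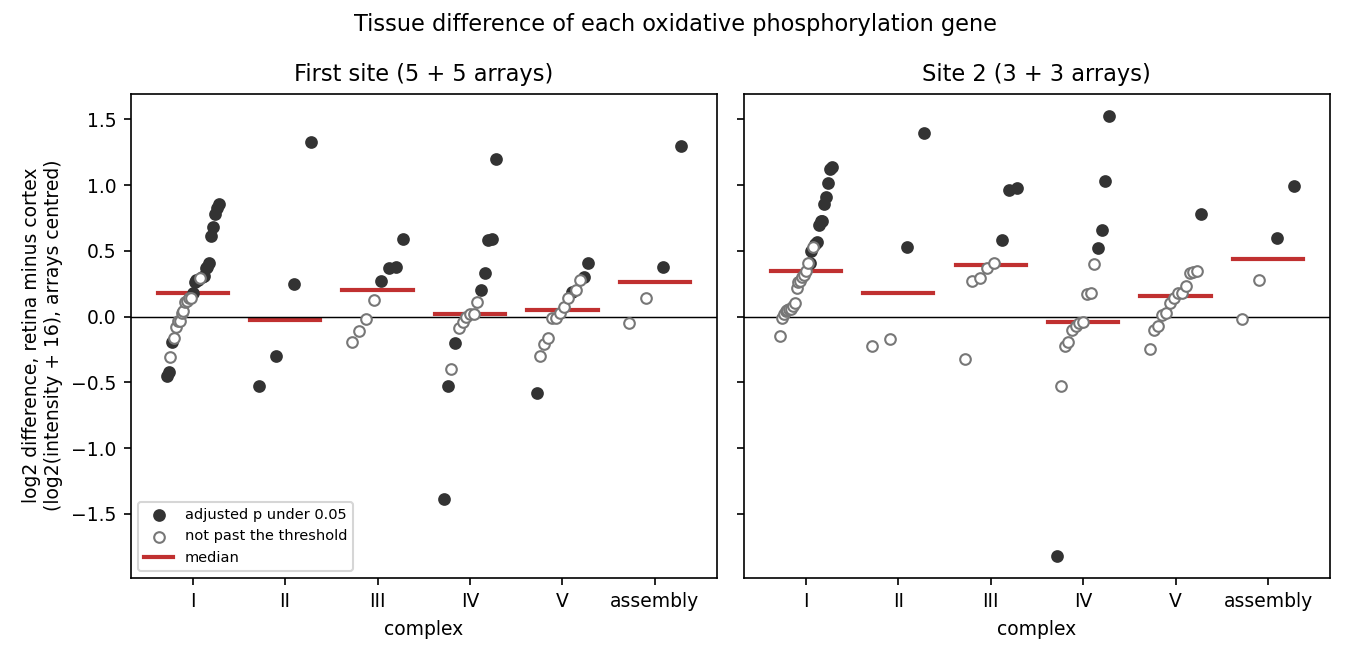
Log2 difference between retina and cortex for each of the 74 genes, by complex, at the first site (left, 5 arrays per tissue) and at site 2 (right, 3 per tissue). Points include the 7 genes not above the no-target controls on every array; filled points passed the adjusted threshold, open points did not, and red lines are medians; complex I had a median of 0.18 and complex IV of 0.02 at the first site, with the widest spread in complex IV.

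Complex I, the largest of the complexes, had 48.3% of its genes higher in retina at the first site, a share close to that of complex II (2 of 4) and complex III (4 of 8). Of its 29 genes, 14 were higher, 3 were lower and 12 did not pass, with a median log2 difference of 0.18. At site 2, 12 were higher, none was lower and 17 did not pass (median 0.35). The 4 core subunits measured, all of the matrix arm that takes electrons from NADH, ran from 0.04 to 0.37 at the first site, and 3 of them passed: Ndufv1, the subunit that binds NADH, at 0.37 ± 0.08 (SE), Ndufs1 at 0.26 ± 0.07 and Ndufs3 at 0.18 ± 0.06. Ndufv1 was also higher at site 2 (0.73 ± 0.15), as was Ndufs1 (0.41 ± 0.13), whose site 2 call was lost under 11 of 16 alternatives, among them leaving out any single site 2 array other than cortex replicate 2, while Ndufs3 was not called there (0.41 ± 0.17, limma adjusted p = 0.1). The fourth, Ndufv2, was 0.04 ± 0.07 at the first site, but its other probe set was called lower there (-0.31 ± 0.09, adjusted p = 0.0089) with no overlap between the tissues.

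The largest first-site differences of complex I were those of Ndufb11 and Ndufc1, accessory subunits of the membrane arm. Ndufa2 of the matrix arm came next. Ndufb11, an X-linked accessory subunit, had scaled intensities of 1717, 1864, 1694, 1849 and 1443 on the first-site retina arrays and 942, 937, 883, 968 and 970 on the cortex arrays. On the site 2 arrays the values were 2104, 2719 and 2523 in retina and 1128, 1151 and 1138 in cortex. Every retina array lay above every cortex array at both sites. The log2 difference was 0.86 ± 0.08 (SE, limma adjusted p = 9.5e-08) and 1.12 ± 0.16 (adjusted p = 0.00034).

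Ndufc1, another small membrane subunit, read 1658, 2070, 1573, 1924 and 1353 in retina and 942, 971, 858, 1032 and 976 in cortex at the first site. Its site 2 values were 2063, 2562 and 2303 in retina and 1016, 1812 and 1156 in cortex, the 1812 coming from the array that stood apart. The tissues did not overlap at either site, and the differences were 0.83 ± 0.10 and 0.86 ± 0.18. Ndufa2, an accessory subunit of the matrix arm, differed by 0.78 ± 0.11 and 0.70 ± 0.16, the latter call being lost without retina replicate 2. For Ndufb3 the first-site arrays overlapped, since cortex array 4 read 1070 and retina array 2 read 1048; its difference was 0.68 ± 0.12, and 0.91 ± 0.21 at site 2.

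Ndufb8 and Ndufa13, both accessory subunits, had larger estimates at site 2. Ndufa13, also known as GRIM-19, read 642, 599, 652, 605 and 584 in retina and 481, 499, 437, 448 and 455 in cortex at the first site, against 1011, 1530 and 1143 and 638, 427 and 601 at site 2. Both sites separated the tissues fully. The differences were 0.41 ± 0.07 and 1.14 ± 0.23, but the test of the difference between sites did not pass (interaction 0.73 ± 0.21, limma adjusted p = 0.057). Ndufb8 differed by 0.61 ± 0.07 and 1.02 ± 0.20 (interaction adjusted p = 0.25). By name stem, 7 of the 11 Ndufb and Ndufc genes were higher at the first site and 1 lower (median 0.28), against 4 and 1 of the 12 Ndufa genes (median 0.13).

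The 3 complex I genes lower in retina at the first site were Ndufv3, an accessory subunit of the NADH module (-0.45 ± 0.10), Ndufb6 (-0.42 ± 0.07) and Ndufa8 (-0.19 ± 0.07). At site 2 their differences were -0.01 ± 0.25, 0.02 ± 0.20 and 0.08 ± 0.20, none of them past the threshold, though without cortex replicate 2 Ndufv3 differed by -0.33 there and passed (limma adjusted p = 0.04). Ndufb6 read 1506, 1532, 1513, 1485 and 1430 in first-site retina and 2048, 2102, 1912, 1868 and 2202 in cortex, with no overlap. Its site 2 values were 1858, 2295 and 2669 in retina and 2479, 1978 and 2357 in cortex, which overlap. The Ndufa8 call was lost under 11 of 20 alternatives, among them leaving out cortex array 1, 2, 4 or 5, or retina array 1 or 5. The remaining higher genes were Ndufb9, Ndufa5, Ndufa6, Ndufb10 and Ndufb7, between 0.28 and 0.38 at the first site, and the site 2 calls of Ndufb9, Ndufa6 and Ndufb7 were each lost without retina replicate 2 and without retina replicate 3, that of Ndufa6 also without cortex replicate 1 and that of Ndufb9 also without retina replicate 1 and without cortex replicate 3. The first-site calls of Ndufa5, Ndufs3 and Ndufb7 were each lost without single arrays: Ndufa5 without retina replicate 4 or cortex replicate 2, Ndufs3 without retina replicate 1 or cortex replicate 4, and Ndufb7 without retina replicate 2, without retina replicate 4 or without cortex replicate 3. When the array medians were not subtracted (no centring), 7 complex I genes were higher and 0 lower at the first site, and 0 were called at site 2.

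**Figure D2:**
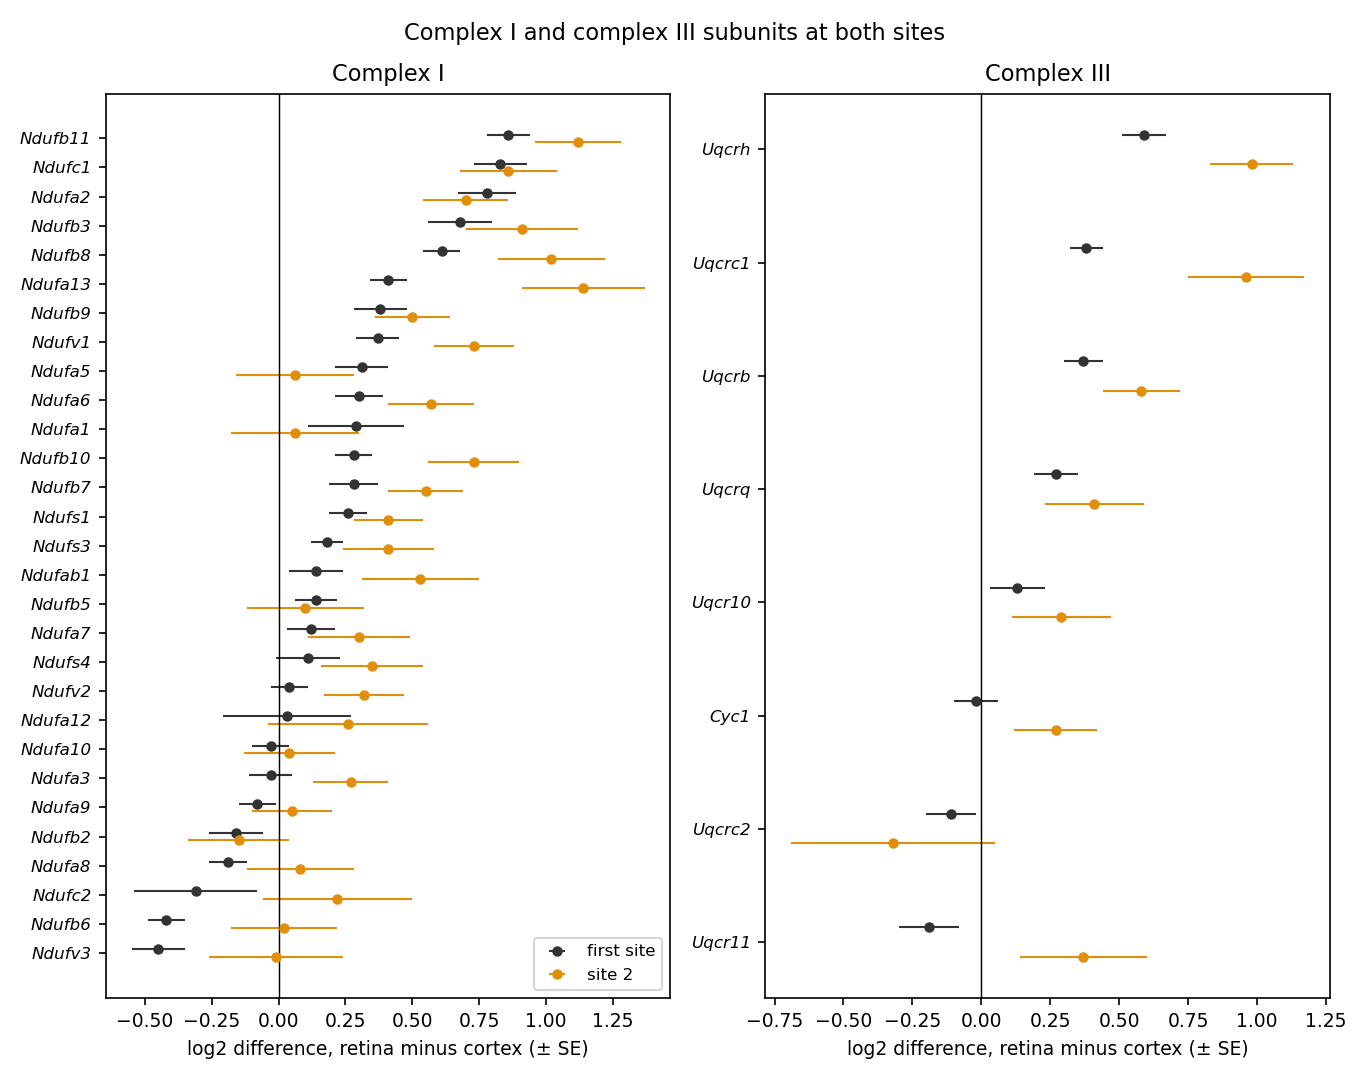
Log2 difference between retina and cortex for each complex I gene (left) and complex III gene (right), ordered by the first-site value; points are estimates and bars standard errors from limma at the first site (dark, 5 arrays per tissue) and site 2 (orange, 3 per tissue). Ndufb11 leads complex I at the first site with 0.86 and Ndufa13 at site 2 with 1.14, and Ndufv3 sits at -0.45 and -0.01.

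Complex III genes were higher or not called. Of 8 genes, 4 were higher at the first site and none lower (median 0.20), and 3 were higher at site 2 (median 0.39). Uqcrh, the hinge protein next to cytochrome c1, read 1503, 1757, 1650, 1765 and 1466 in retina and 1146, 1115, 915, 1045 and 1192 in cortex. The site 2 arrays gave 2256, 2905 and 2583 against 1367, 1424 and 1183. The tissues did not overlap at either site, and the log2 differences were 0.59 ± 0.08 (SE, limma adjusted p = 1.4e-05) and 0.98 ± 0.15 (adjusted p = 0.00064).

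Uqcrc1, core protein 1, read 1930, 2065, 2005, 2028 and 1956 in first-site retina and 1398, 1616, 1541, 1478 and 1661 in cortex. On the site 2 arrays it read 2551, 2813 and 3070 in retina and 1728, 1169 and 1549 in cortex. Again no arrays overlapped, with differences of 0.38 ± 0.06 and 0.96 ± 0.21. Uqcrb, the ubiquinone-binding subunit, differed by 0.37 ± 0.07 and 0.58 ± 0.14 (a site 2 call lost without retina replicate 2), and the small subunit Uqcrq by 0.27 ± 0.08 and, not called, 0.41 ± 0.18.

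The partner core protein Uqcrc2 did not pass (-0.11 ± 0.09), nor did Cyc1, cytochrome c1 (-0.02 ± 0.08), or the small subunits Uqcr10 and Uqcr11 (0.13 ± 0.10 and -0.19 ± 0.11). On cortex replicate 2 of site 2, Uqcrc2 read 3310, against 918 and 874 on the other cortex arrays of that site. Without that array 6 of the 8 complex III genes were higher at site 2, where 26.6% of all probe sets were. Uqcrc2 then differed by 0.21, against a median of 0.15 over all probe sets. Without centring, 2 complex III genes were higher at the first site and 0 at site 2.

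Complex II was the complex in which the 4 subunits split evenly at the first site, 2 higher and 2 lower in retina, with all 4 past the threshold. Sdha, the flavoprotein that oxidises succinate, read 521, 494, 540, 534 and 499 in retina and 189, 197, 187, 223 and 199 in cortex. The site 2 values were 540, 555 and 545 in retina and 235, 181 and 187 in cortex. Every retina array lay above every cortex array, by more than 2-fold. The first-site difference was 1.33 ± 0.07 (SE, limma adjusted p = 2.6e-10) and the site 2 difference 1.40 ± 0.16 (adjusted p = 8.5e-05), or 1.29 without the array that stood apart.

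Sdhb, the iron-sulfur subunit that takes electrons from Sdha, went the other way at the first site. It read 899, 928, 968, 867 and 647 in retina and 1236, 1312, 1292, 1235 and 1188 in cortex, without overlap, a difference of -0.53 ± 0.10 (limma adjusted p = 0.0002). At site 2 it read 1065, 1330 and 1251 in retina and 1401, 1677 and 1286 in cortex, which overlap, and the difference of -0.22 ± 0.14 did not pass (adjusted p = 0.3). The test of the difference between sites did not pass either (interaction 0.31 ± 0.16, adjusted p = 0.34).

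The membrane anchors also parted. Sdhc read 1758, 1678, 1675, 1781 and 1563 in first-site retina and 1506, 1639, 1249, 1381 and 1413 in cortex, which overlap, with retina higher by 0.25 ± 0.08. Its site 2 difference was 0.53 ± 0.18 (limma adjusted p = 0.042), a call lost without any one of the 3 retina arrays or without cortex replicate 3. Sdhd differed by -0.30 ± 0.08 at the first site, with cortex replicate 5 at 1277 and the other cortex arrays between 970 and 1015. At site 2 the Sdhd difference was -0.17 ± 0.20, and -0.38 without cortex replicate 2, where it passed (adjusted p = 0.024). Without centring, Sdha alone of the 4 was called at the first site and none at site 2.

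The complex II assembly factors were higher at both sites. Sdhaf1, which serves the iron-sulfur subunit, read 1028, 952, 1028, 1128 and 857 in retina and 392, 361, 371, 409 and 463 in cortex at the first site. Its site 2 values were 900, 1135 and 1059 in retina and 418, 879 and 385 in cortex, where the 879 came from the array that stood apart and the tissues still did not overlap. The differences were 1.30 ± 0.09 (limma adjusted p = 3.7e-09) and 0.99 ± 0.23, and 1.28 at site 2 without that array. Sdhaf2, which attaches the flavin to Sdha, was higher by 0.38 ± 0.09 and 0.60 ± 0.15, the site 2 call again being lost without retina replicate 2. The complex I assembly factors Ndufaf1 (0.14 ± 0.09 and 0.28 ± 0.16) and Ndufaf4 (-0.05 ± 0.12 and -0.02 ± 0.15) did not pass.

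**Figure D3:**
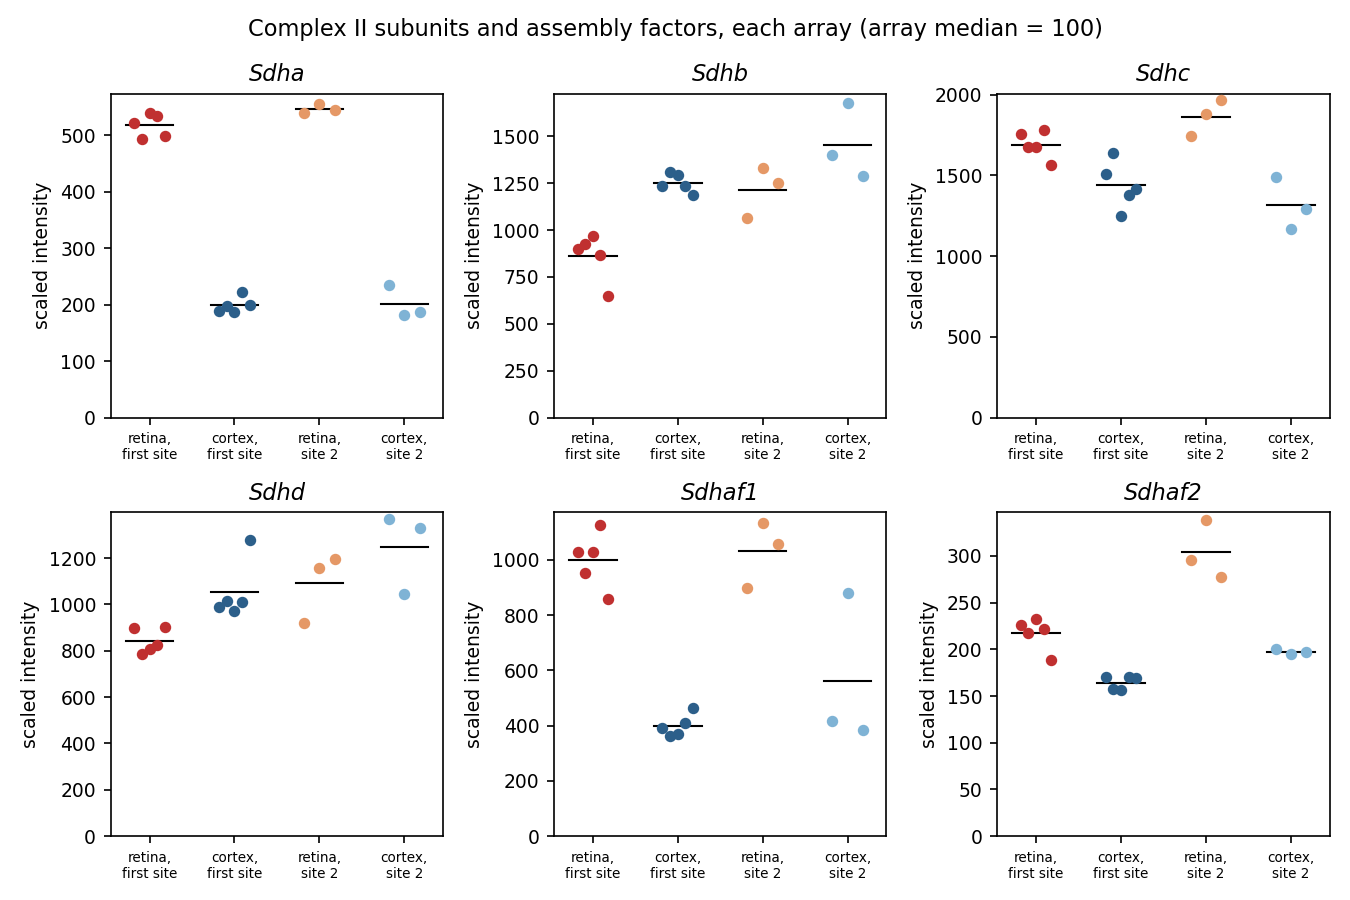
Scaled intensity (array median 100) of the 4 complex II subunits and of Sdhaf1 and Sdhaf2 on each of the 16 arrays; points are arrays, bars group means, and each axis starts at 0. Sdha sits at 494 to 540 in first-site retina and 187 to 223 in first-site cortex, whereas Sdhb is higher in first-site cortex.

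The 200 bases before the RefSeq gene start (build GRCm38.p6) are printed for Sdha (chr13:74350241-74350440, minus strand), Sdhb (chr4:140961071-140961270, plus strand) and Sdhd (chr9:50603850-50604049, minus strand). Sdhc, the other complex II subunit higher in retina, is not printed. Whether these sequences bear on the direction of the differences was not tested. Capitals mark matches on either strand to GCGCANGCG, part of the core recognised by NRF1 (nuclear respiratory factor 1), and to CCGGAAG, the core of ETS factors such as GABP. Both factors are known for regulating nuclear genes of the respiratory chain.
Sdha: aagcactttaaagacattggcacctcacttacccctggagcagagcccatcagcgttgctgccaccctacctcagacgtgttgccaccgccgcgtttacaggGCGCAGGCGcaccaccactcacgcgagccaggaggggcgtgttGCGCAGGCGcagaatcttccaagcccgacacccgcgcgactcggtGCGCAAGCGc
Sdhb: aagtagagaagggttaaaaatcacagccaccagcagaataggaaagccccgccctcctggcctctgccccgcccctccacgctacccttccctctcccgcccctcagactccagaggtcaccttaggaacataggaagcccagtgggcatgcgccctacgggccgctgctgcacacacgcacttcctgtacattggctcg
Sdhd: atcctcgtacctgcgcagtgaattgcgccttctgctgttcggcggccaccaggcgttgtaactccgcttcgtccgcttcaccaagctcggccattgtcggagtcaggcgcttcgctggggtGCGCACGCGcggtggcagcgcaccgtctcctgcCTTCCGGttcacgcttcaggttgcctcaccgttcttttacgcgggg

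The Sdha stretch holds 3 matches to GCGCANGCG and 0 to CCGGAAG, the Sdhd stretch holds 1 of each, and the Sdhb stretch holds 0 of both. In these stretches no match to one motif overlaps a match to the other. Over the 250 bases before the start, 10 of the 60 oxidative phosphorylation genes in the promoter table (16.7%) held GCGCANGCG on either strand, against 5.86% of the 27025 genes in it. CCGGAAG was held by 13 of the 60 (21.7%), against 7.83% of all genes. Genes holding the first motif were split at the first site, 3 higher (Sdha, Atp5g2 and Ndufa5), 3 lower (Sdhd, Cox6a1 and Ndufa8) and 4 not called. Those holding the second were 4 higher, 3 lower and 6 not called. The matches describe letters in this window and were not tested as binding sites.

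Complex IV had the widest range of differences, and its tissue isoforms held the extremes. Of its 15 genes, 5 were higher at the first site, 3 lower and 7 not called (median 0.02), and 4 were higher, 1 lower and 10 not called at site 2 (median -0.04). Leaving out the 5 genes named for muscle or testis (Cox6a2, Cox6b2, Cox7a1, Cox8b and Cox8c), 1 of 10 was higher and 2 lower at the first site, and 1 and 0 at site 2. The site 2 median of complex IV was 0.23 without cortex replicate 2, where that of all probe sets was 0.15. Without retina replicate 2 the complex IV median was 0.11.

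Cox6b2, the testis isoform of subunit 6b, read 148, 193, 152, 205 and 150 in first-site retina and 69.7, 72.9, 57.6, 64.4 and 61.3 in cortex. The site 2 values were 222, 279 and 244 in retina and 71.1, 81.8 and 75.7 in cortex. All arrays lay above the highest no-target control of their array, and the tissues did not overlap. The differences were 1.20 ± 0.12 (SE, limma adjusted p = 3e-07) and 1.53 ± 0.16 (adjusted p = 4.9e-05). Of its 2 other probe sets, one was called higher as well. Its first-site cortex arrays all lay under their no-target controls, which makes it at least 2.0-fold higher there, and at site 2, where 2 of 3 cortex arrays exceeded them, it differed by 1.61 ± 0.19. The other, which exceeded the controls on 7 of 10 first-site arrays, did not pass (0.25 ± 0.37 and 0.51 ± 0.32).

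The ubiquitous partner Cox6b1 read 105, 117, 108, 105 and 110 in first-site retina and 106, 110, 150, 87.6 and 92.9 in cortex, a difference of 0.02 ± 0.13. At site 2 it differed by -0.22 ± 0.17. Neither passed, so the probe set of the tissue isoform differed and that of its partner was not shown to. The Cox6b1 probe set carries the suffix letter r and averaged 109 in first-site retina, below the 170 of Cox6b2. The probe set that stood for Cox6b2 carries the letter f, and its other one called higher the letter i. Whether these probe sets read only their named genes was not tested, so the contrast holds for the probe sets. The 200 bases before the starts of this pair, which lie on the minus strand of chromosome 7 (chr7:30626115-30626314 for Cox6b1 and chr7:4753095-4753294 for Cox6b2), are shown with the same marks. The Cox6b1 stretch holds 1 match to CCGGAAG, and the Cox6b2 stretch holds 0 matches to either motif.
Cox6b1: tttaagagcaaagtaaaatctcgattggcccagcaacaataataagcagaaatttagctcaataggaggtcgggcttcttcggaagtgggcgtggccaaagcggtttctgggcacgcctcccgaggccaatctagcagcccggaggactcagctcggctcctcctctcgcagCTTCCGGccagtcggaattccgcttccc
Cox6b2: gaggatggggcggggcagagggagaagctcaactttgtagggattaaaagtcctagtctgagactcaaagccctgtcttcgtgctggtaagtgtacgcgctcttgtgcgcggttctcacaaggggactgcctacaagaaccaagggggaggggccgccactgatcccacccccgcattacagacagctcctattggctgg

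Cox6a2, the heart and skeletal muscle isoform of subunit 6a, went the other way. It read 21.2, 24.8, 21.2, 23.6 and 27.2 in first-site retina and 114, 31.7, 85.5, 109 and 107 in cortex. On the site 2 arrays it read 18.5, 16.9 and 13.5 in retina and 89.9, 123 and 79.3 in cortex. Retina lay below cortex on every array at both sites, and only 1 of 5 and 1 of 3 retina arrays exceeded their no-target controls. The differences were -1.39 ± 0.23 (SE, limma adjusted p = 8.2e-05) and -1.82 ± 0.22 (adjusted p = 0.00012).

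Its ubiquitous partner Cox6a1 was also lower in retina at the first site. It read 2660, 3155, 2795, 3450 and 2661 in retina and 4364, 4373, 3699, 4316 and 4681 in cortex, without overlap, a difference of -0.53 ± 0.09 (limma adjusted p = 8.2e-05). The site 2 values were 2508, 3032 and 3251 in retina and 3600, 6690 and 3301 in cortex, again without overlap, but the difference of -0.53 ± 0.21 did not pass (adjusted p = 0.079). Without the array that read 6690 the difference was -0.31.

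Cox8b and Cox7a1, also isoforms of heart and skeletal muscle, were higher in retina. Cox8b exceeded the no-target controls on all 16 arrays, while Cox7a1 lay near or under them. Cox8b read 165, 155, 169, 196 and 167 in first-site retina and 86.7, 96.7, 144, 112 and 114 in cortex, without overlap, and differed by 0.58 ± 0.12 and, at site 2, 0.66 ± 0.17, the latter call being lost without retina replicate 3. The site 2 call of Cox8b was also lost when the probe sets of each gene were averaged. The probe set that stood for Cox8b carries the suffix letter r. Another probe set of Cox8b, which lay at or under the no-target controls on 9 of 10 first-site arrays, differed by -0.01 ± 0.16. At site 2 that probe set exceeded the controls on all 3 retina arrays and 2 of 3 cortex arrays and was not called (0.37 ± 0.27). Cox7a1 passed at the first site with all 10 arrays at or under their no-target controls, so no size is given. At site 2 all 3 retina arrays exceeded the controls (25.4, 37.8 and 29.0) and no cortex array did (8.05, 1.97 and 8.43), which makes it at least 1.68-fold higher in retina; that call was lost without any single array of site 2 other than cortex replicate 2.

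Most markers of muscle were not called at the first site, where 47.1% of all probe sets were. Of 13 measured skeletal muscle markers, 1 was higher and 1 lower in retina at the first site, and their summed scaled intensity ran from 580 to 656 in retina and 629 to 740 in cortex. Of 11 heart and slow muscle markers, 1 was higher and 3 lower, with sums of 504 to 572 in retina and 641 to 810 in cortex. Myh7, the slow myosin heavy chain, was lower in retina, where all 5 arrays lay under their no-target controls, while all 5 cortex arrays exceeded them with a scaled mean of 54.5 ± 15.5 (SD). Actc1, cardiac actin, differed by -0.81 ± 0.09. The probe sets of Myh7 and Actc1 carry the suffix letter f. The third lower gene, Myh6, exceeded the controls on no first-site array. The higher one, Tnnc1, exceeded them on 1 of 5 retina arrays and on no cortex array. Of the skeletal muscle markers, Mylpf was higher by 0.37 ± 0.11 and Acta1 differed by -0.67 ± 0.12. Of the 13 skeletal muscle markers, 8 exceeded the no-target controls on every first-site retina array and 6 on every cortex array, and 5 (Mb, Tnnt3, Tnni2, Myh1 and Myh2) exceeded them on none of the 10. Of the 11 heart and slow muscle markers, Tnnt2, Myl4, Nppa and Actc1 exceeded them on every first-site retina array. On every first-site cortex array Myh7, Myl4, Nppa and Actc1 did. Of the 4 brown fat markers 1 was lower, and of the 3 erythroid markers all were lower (median -2.06). Whether other cell types contributed to the Cox6a2 difference was not tested.

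**Figure D4:**
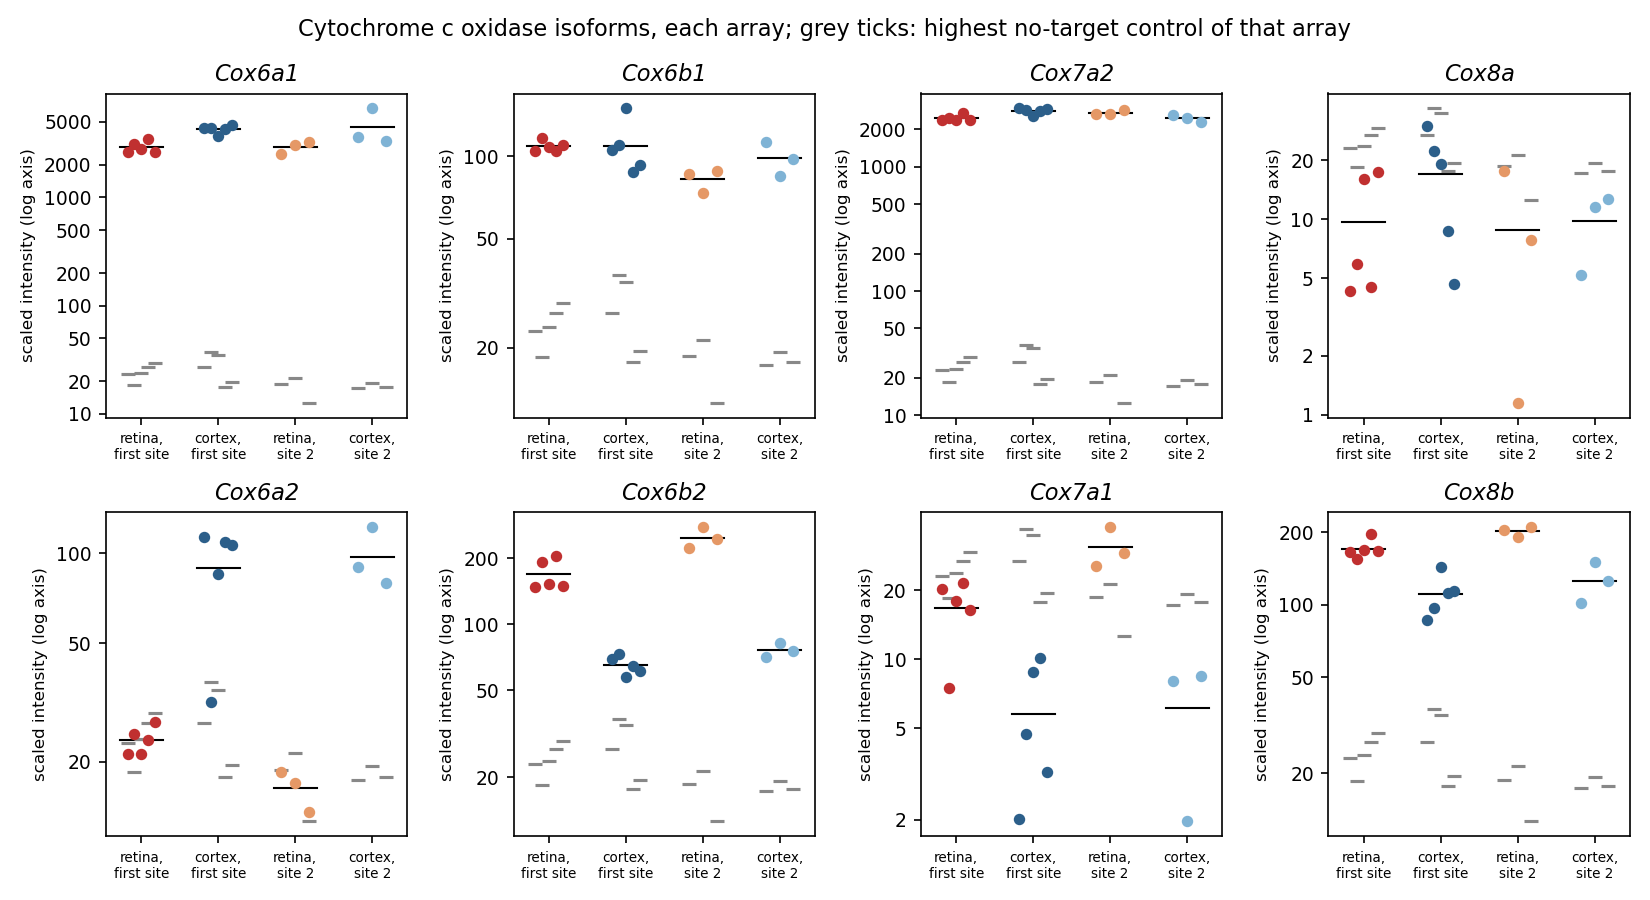
Scaled intensity on a log axis of 4 pairs of complex IV isoforms, the ubiquitous gene above and the tissue isoform below, on each of the 16 arrays; black bars are group means and grey ticks mark the highest no-target control of each array. Cox6b2 sits at 148 to 205 in first-site retina and 57.6 to 72.9 in cortex, and Cox6a2 shows the opposite order, while Cox8a and Cox7a1 lie near or under the grey ticks.

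Whether the probe sets of each pair read only their named genes was not tested. The shift within each pair was taken as the log2 ratio of the tissue isoform to its partner, compared between tissues. At the first site it was 1.18 ± 0.17 (SE) for Cox6b2 over Cox6b1 (exact two-sided permutation p = 0.00794, the smallest that 5 against 5 arrays allow). It was -0.86 ± 0.28 for Cox6a2 over Cox6a1 (p = 0.0397, exact), where 4 of 5 retina arrays lay at or under the controls for Cox6a2. Over the 8 tests of 4 pairs at 2 sites, the Benjamini-Hochberg values of these exact permutation tests were 0.0635 and 0.0794, so neither passed 0.05. At site 2 the shifts had the same signs, at 1.75 and -1.29, where 3 against 3 arrays cannot go below an exact p of 0.1. No shift is read from the other pairs, since Cox7a1 lay under the controls on all first-site arrays and on all site 2 cortex arrays, and Cox8a on 9 of 10 first-site arrays and all 6 of site 2.

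The other ubiquitous complex IV genes gave small differences. Cox7a2, the partner of Cox7a1, gave a first-site difference of -0.20 ± 0.07 and a site 2 difference of 0.17 ± 0.15, and Cox7a2l, a supercomplex factor, was higher by 0.33 ± 0.07 and 0.52 ± 0.14, the latter call being lost without retina replicate 2, without retina replicate 3 or without cortex replicate 3. The testis isoform Cox8c was higher at the first site by 0.20 ± 0.07 and not called on the site 2 arrays (-0.19 ± 0.15). The Cox7a2 and Cox8c calls were each lost under 9 of 20 alternatives. For Cox7a2 these included leaving out retina replicate 2 or 3 or cortex replicate 1 or 5, and for Cox8c retina replicate 3 or 4 or cortex replicate 3 or 4. Cox4i1, Cox5b, Cox6c and Cox7b, subunits of most tissues, lay between -0.04 and 0.11 at the first site, none of them past the threshold. Cox5a lay at or under the no-target controls on 7 of 10 first-site arrays, so its difference is given no size.

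Of the 5 complexes, complex V had the smallest share of genes called, 28.6% at the first site and 7.14% at site 2. Over all probe sets 47.1% and 32.5% were called. The first-site ranking depended on dim genes. In the fit of probe sets above the median signal, 4 were higher and 2 lower of 12 in complex V, against 4 and 0 of 8 in complex III. Of 14 genes, 3 were higher at the first site, 1 was lower and 10 were not called (median 0.05), against 1, 0 and 13 at site 2 (median 0.16). Atp5o, the stalk subunit OSCP that joins the catalytic head, read 947, 1130, 1024, 1156 and 854 in first-site retina and 1442, 1655, 1417, 1399 and 1793 in cortex. Its site 2 values were 1545, 1980 and 2199 in retina and 2099, 1542 and 2186 in cortex. The first-site arrays did not overlap and those of site 2 did. The first-site difference was -0.58 ± 0.09 (SE, limma adjusted p = 7.3e-05) and the site 2 difference 0.01 ± 0.23, and the test of the difference between sites did not pass (interaction 0.58 ± 0.22, adjusted p = 0.17).

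Atp5mpl, a small membrane protein of the complex, was the gene of complex V called at both sites. It read 2803, 3307, 3099, 3488 and 3035 in first-site retina and 2753, 3052, 2213, 2179 and 2697 in cortex, which overlap. Its site 2 values were 3047, 3435 and 3076 in retina and 2073, 1920 and 1707 in cortex, with no overlap. The differences were 0.30 ± 0.09 and 0.78 ± 0.15. Atp5g2, 1 of the genes for the c subunit of the rotor ring, had a first-site difference of 0.41 ± 0.10 (0.34 ± 0.14 at site 2, not called), and its other probe set differed by -0.19 ± 0.15.

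The alpha subunit of the catalytic head, Atp5a1, was higher by 0.19 ± 0.08 (limma adjusted p = 0.047), a call lost under 14 of 20 alternatives, among them leaving out any single first-site array other than retina replicate 5 or cortex replicate 1. The rotor genes Atp5c1, Atp5d and Atp5e differed by -0.01, 0.03 and -0.30 and did not pass, nor did Atp5l, Atp5j, Atp5k, Atp5pb, Atp5g1, Atp5j2 and Atp5md. Of the check probe sets at the first site, 1 of the 4 of Atp5d was called higher (0.53 ± 0.19) and that of Atp5g1 lower (-0.46 ± 0.14). On cortex replicate 2 of site 2, Atp5md read 9426, against 3166 and 2551 on the other cortex arrays. Its site 2 difference was -0.10 ± 0.34 with that array and 0.38 without it (adjusted p = 0.046).

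The same pools read on arrays of different sites also differed. In retina, 27 of the 74 genes were higher at site 2 than at the first site and 4 were lower (limma, 16 arrays), where 35.7% of all probe sets were called, 23.2% higher and 12.5% lower. The 27 are 36.5% of the genes, and among probe sets above the median signal 37.1% were higher. With quantile normalization the split was 21 higher and 9 lower. In cortex, 5 were higher and 4 lower, where 16.7% of all probe sets were called, 10.3% higher and 6.4% lower, and without cortex replicate 2 of site 2 the counts were 20 and 7.

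By complex, 6 of 8 complex III genes and 13 of 29 complex I genes were higher on the site 2 retina arrays, against 1 of 15 in complex IV and 3 of 14 in complex V. Ndufa13 was higher there by 0.95 ± 0.15, Atp5o by 0.88 ± 0.16, Atp5e by 0.87 ± 0.16, Ndufv3 by 0.84 ± 0.17 and Ndufb8 by 0.80 ± 0.13. Cox8c was lower at site 2 in both tissues, by a difference of -0.87 ± 0.09 in retina and -0.48 ± 0.09 in cortex. Ndufa3, Ndufa6, Ndufb8 and Ndufaf4 were higher at site 2 in both tissues. The RNA is the same per the design text, so these are differences between sets of arrays.

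Expressed as a shift of each gene from its own 16-array mean, complex I had array medians of -0.12 to 0.09 in first-site retina and -0.26 to -0.15 in first-site cortex. At site 2 they were 0.24 to 0.41 in retina and -0.23 to -0.01 in cortex. The complex I ranges did not overlap between tissues at either site. At the first site they were parted narrowly, with the lowest retina value at -0.12 and the highest cortex value at -0.15. Complex III separated the tissues at site 2 (0.15 to 0.54 against -0.18 to 0.04) but overlapped at the first site (-0.17 to 0.12 against -0.44 to -0.11). Complex V overlapped at the first site (-0.02 to 0.19 against -0.13 to 0.11) and at site 2 was parted by 0.01 only (-0.02 to 0.18 against -0.21 to -0.03). Complexes II and IV overlapped at both sites.

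**Figure D5:**
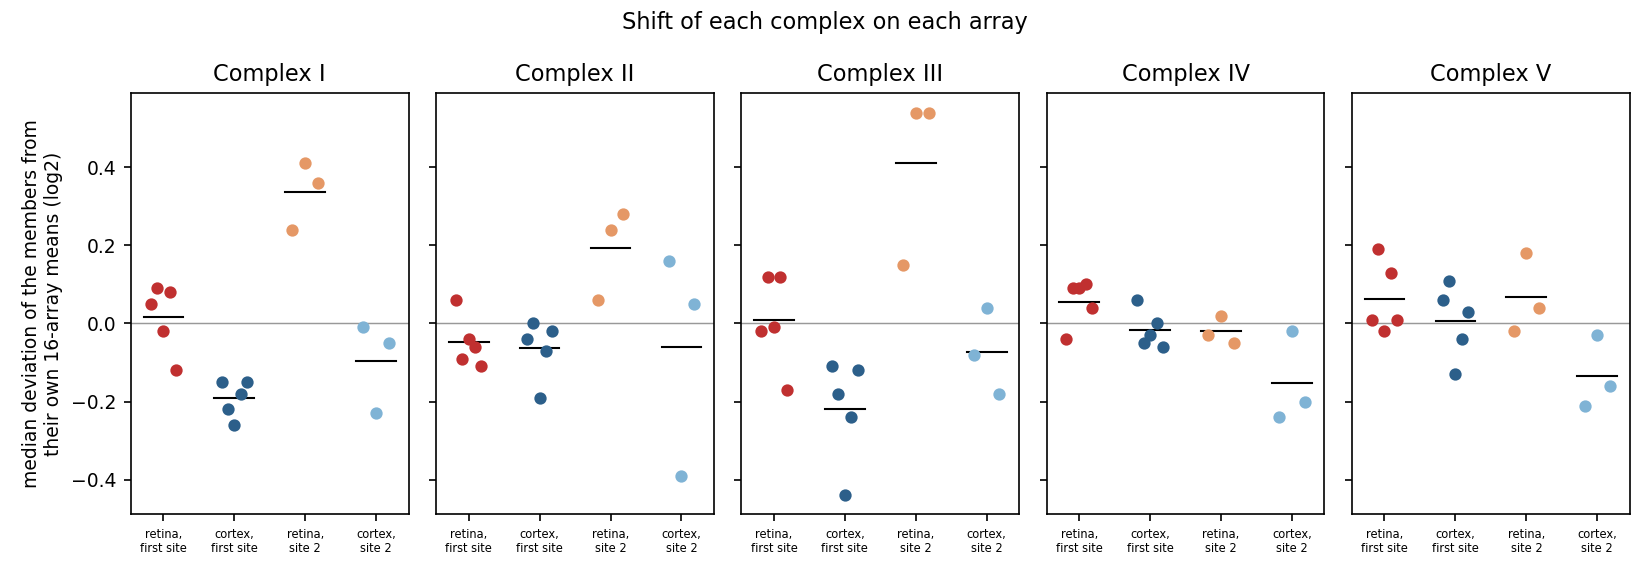
Median deviation (log2) of the genes of each complex from their own means over the 16 arrays, 1 point per array and black bars for group means. In complex I the site 2 retina arrays sit highest, at 0.24 to 0.41, and both retina groups lie above the cortex group of their site; complexes II and IV overlap at both sites.

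For the tissue difference itself, none of the 74 genes passed the test of a difference between sites, against 3.36% of all probe sets. An unadjusted limma p under 0.05 was found for 16 of the 74. It was also found for 2182 of all 12422 probe sets and for 1704 of the 6211 above the median signal. Ndufa13 had the lowest adjusted p, 0.057, followed by Uqcrc1 (interaction 0.58 ± 0.19, adjusted p = 0.1). Counted on the centred log2 values, 19 genes had all first-site retina arrays above all cortex arrays and 7 had them below, where 37.9% of all probe sets did not overlap, 17.4% above and 20.4% below. The site 2 numbers were 32 and 3, where 44.2% did not overlap, 22.0% above and 22.2% below. Without cortex replicate 2, 34 genes were called higher at site 2 and 3 lower, against 26.6% and 21.3% of all probe sets.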

How the data were processed

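Total RNA of adult retina and newborn cortex was measured on 16 arrays of 2 sites. The deposited values are linear intensities, 1 per probe set, so the authors had summarised the probes before deposit. Which algorithm, background handling and scaling they used is not stated in the labels. Of 12488 probe sets, 66 controls were left out. The values were analysed as log2(intensity + 16) less the median of their array, so differences of dim genes are understated. R 4.3.3 with limma 3.58.1 (lmFit, then eBayes with intensity trend, two-sided) estimated the differences, separately per site, with Benjamini-Hochberg adjustment over 12422 probe sets at 0.05; site and interaction contrasts came from 1 fit of all 16 arrays. Printed intensities are scaled to an array median of 100, and fold bounds use the highest of 13 no-target controls, a floor set after values were seen. Isoform pairs were compared by exact permutation tests (scipy 1.17.1).

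The members and lists were chosen with earlier results of these data known. Named genes are, per complex, the 3 with the largest called first-site difference in each direction, every isoform pair, and the assembly factors; other genes appear with counts and ranges, or where a single array decided a value or an interaction or site difference was large, chosen after values were seen. Same-numbered arrays correlated between -0.19 and 0.08, so numbers do not pair them. Alternatives were pseudocounts of 1 and 50, scaling before the pseudocount, no centring, quantile normalization, no trend, brighter probe sets only, 1 fit, other probe set choices, the replicate block and leaving out each array. The procedure was also run on simulated arrays with the same spread in every group and few changed probe sets. The arrays here differ in both respects, so nothing is read from that run. The number of arrays limits the precision. Promoters are RefSeq's, build GRCm38.p6; 60 of 74 genes matched. Annotation and sequence build apply to gene names and sequences only.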

Additional observations from a re-analysis of the deposited data

Results flagged for a closer look

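Within 148 groups of arrays tested for a value far from the others, 9 were found, where chance gives about 1 in 20. Retina replicate 5 of the first site gave 4 of them, all as the lowest value: Ndufa2 read 1010 (others 1275 to 1423), Ndufa8 585 (651 to 718), Ndufab1 849 (1073 to 1199) and Uqcr11 686 (831 to 903). Cortex replicate 3 of that site was lowest for Uqcr11, at 717, and for Ndufaf1, at 165. The highest values were Sdhd on cortex replicate 5, at 1277, and Atp5a1 on retina replicate 2, at 4772. Cox6a2 read 31.7 on cortex replicate 2, against 85.5 to 114 on the other first-site cortex arrays.

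In 1 check probe set the retina-cortex difference was not the same on the arrays of both sites. For Ndufb2, a complex I membrane subunit, this probe set differed by -0.12 ± 0.08 at the first site and 0.49 ± 0.17 at site 2 (interaction 0.61, limma adjusted p = 0.038), while the brightest probe set of the gene differed by -0.16 ± 0.10 and -0.15 ± 0.19.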

How the results depend on the processing

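Of the 30 genes higher at the first site 13 were called under every alternative, of the 9 lower 3, of the 24 higher at site 2 none and of the 1 lower there 1. Some site 2 calls were lost only without centring. These were Sdha, Sdhaf1, Ndufb11, Ndufb8, Ndufa13, Ndufb3, Ndufc1, Ndufv1, Uqcrc1, Uqcrh, Atp5mpl and Cox6b2. Without centring, 15 were higher and 3 lower at the first site, 0 were higher at site 2, and between sites 0 and 0 were called in retina and 0 and 0 in cortex. Genes lower at site 2 numbered 0 among probe sets above the median signal and 2 in 1 fit of all arrays, with a pseudocount of 50, with quantile normalization and with the replicate block. The block, whose numbers do not pair the arrays, left the other counts within 1.5 times. The interaction called 1 higher gene with a pseudocount of 1 and when scaled first, and 1 lower with quantile normalization. Between sites, retina had 9 lower genes with quantile normalization and cortex 3 higher with a pseudocount of 50. Scaling moved the median of all probe sets by over 0.1 only in the interaction without centring, to -0.10. The first-site pair shift of Cox8b over Cox8a, from which nothing is read since Cox8a lay under the no-target controls on 9 of 10 arrays, was 1.38 with a pseudocount of 1 and 0.68 when the probe sets of each gene were averaged, and that of Cox6a2 over Cox6a1 was -0.45 with a pseudocount of 50, all with an exact p over 0.05.

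Leaving out each array gave 26 to 31 higher and 7 to 11 lower genes at the first site and 14 (without retina replicate 2) to 34 (without cortex replicate 2) higher and 1 to 3 lower at site 2. The interaction gave 0 to 2 higher. Between sites, 20 to 31 were higher and 1 to 3 lower in retina, against 4 lower with all arrays,, and 3 to 20 higher and 2 to 7 lower in cortex, the 20 and 7 without cortex replicate 2 of site 2. The site 2 medians were 0.29 to 0.54 for complex III and -0.16 to 0.23 for complex IV. The first-site pair shifts ran from -1.11 to -0.77 for Cox6a2 and from 0.76 to 1.17 for Cox8b. Atp5md at site 2 ran from -0.40 to 0.38, turning to the latter without cortex replicate 2. The 7 genes under the no-target controls on some arrays, Atp5j2, Cox5a, Cox6a2, Cox7a1, Cox8a, Ndufa12 and Ndufc2, are limited by signal over background.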

Other observations

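Genes that feed, build and serve the complexes also went both ways. Of 20 measured genes of the citric acid cycle and pyruvate dehydrogenase, 7 were higher in retina and 5 lower at the first site (median 0.11), and 4 and 2 at site 2. In all, 60.0% were called at the first site and 30.0% at site 2. Over all probe sets 47.1% and 32.5% were called, and above the median signal 68.1% and 47.6%. Pdk3, a kinase that restrains pyruvate dehydrogenase, was higher by 1.06 ± 0.08 and 1.24 ± 0.14 (SE, limma). Idh2, the mitochondrial NADP-dependent isocitrate dehydrogenase, differed by -1.10 ± 0.13 (-0.63 ± 0.24 at site 2, not called), and Suclg2, a succinyl-CoA ligase subunit, by -0.91 ± 0.12 and -0.72 ± 0.22. The other ligase subunits Suclg1 (0.51 ± 0.07) and Sucla2 (0.55 ± 0.08), singled out after their values were seen, were higher at the first site.

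Of 20 genes of complex assembly and mitochondrial biogenesis, 8 were higher and 6 lower at the first site, and 5 and 2 at site 2. That is 70.0% and 35.0% called, against 47.1% and 32.5% of all probe sets, and 68.1% and 47.6% above the median signal. Polg2, the accessory subunit of the mitochondrial DNA polymerase, averaged 619 in first-site retina and 81.2 in cortex (scaled intensity) and was higher by 2.73 ± 0.08 and 2.86 ± 0.15. Cox17, the copper chaperone for complex IV, was higher by 1.75 ± 0.09 and 1.59 ± 0.15. Uqcc1, a complex III assembly factor, gave a first-site difference of -1.07 ± 0.12 and a site 2 difference of 0.21 ± 0.16 that did not pass. Of 21 electron and metabolite carriers, 9 were higher and 3 lower at the first site, and 4 and 1 at site 2. That is 57.1% and 23.8% called, beside the same shares of all probe sets. Gpd2, the glycerol phosphate dehydrogenase that hands electrons to ubiquinone, differed by -2.59 ± 0.10 and -3.12 ± 0.15. The Gpd2 probe set carries the suffix letter f. Ckmt1, the mitochondrial creatine kinase, was higher by 1.78 ± 0.10 and 2.13 ± 0.15. Slc25a3, the phosphate carrier, was higher at the first site (1.23 ± 0.25), where only 3 of 5 cortex arrays exceeded their no-target controls. It was not called on the site 2 arrays (0.30 ± 0.33), where 1 of 3 retina arrays lay under its no-target controls.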
